A study of Mus musculus with 12 samples.

Results

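Wt1, Lmx1b, Tcf21, Foxc1, Foxc2 and Cdkn1c, 5 transcription factors and 1 cell cycle inhibitor of podocytes, were followed in whole kidneys after podocyte injury. They were the 6 rows with these symbols among the 56722 genes of a deposited table of read counts. All mice were Pod-TRECK animals, which carry a diphtheria toxin receptor directed to podocytes. The labels name neither the promoter of the receptor nor the strain, age and sex of the mice. There were 4 groups of 3 kidneys, each from a separate biological replicate: mice given no toxin and no other treatment, and mice 5, 14 and 21 days after 100 ng of diphtheria toxin was injected into the peritoneum. RNA was selected by its poly(A) tail and the libraries held between 31023852 and 46420299 counts.

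Podocytes are the epithelial cells that cover the glomerular capillaries, and the slits between their foot processes form part of the filter. Their identity rests on a network of transcription factors. Wt1 is a zinc finger protein that activates podocyte genes such as Nphs1 and Podxl. Lmx1b is a LIM homeodomain protein whose human counterpart is mutated in nail-patella syndrome. Tcf21 is a basic helix-loop-helix protein found in podocytes and in stromal cells, and Foxc1 and Foxc2 are closely related forkhead proteins. Cdkn1c encodes p57, an inhibitor of cyclin-dependent kinases, and mature podocytes are known for it because they have left the cell cycle.

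The 6 genes did not share 1 course. Wt1 and Lmx1b were lower than in controls on all 3 days. Tcf21 was lower at day 5 and higher at day 14, Foxc2 was lower at day 5, and Foxc1 was higher at day 21. Cdkn1c was lower at day 14, and at days 5 and 21 it was not called in the edgeR fit with TMM scaling to all libraries and was called lower without day-21 replicate 2. At day 5 it was also called under 5 other settings. Changes are log2 fold changes with the standard error of an edgeR quasi-likelihood fit to all 12 libraries, with n = 3 libraries per group. A change counts as called where its p, adjusted by Benjamini-Hochberg over the 19821 genes with enough counts to be tested, was under 0.05. Levels are CPM, counts set to a common library size after TMM scaling. All 6 genes passed the filter on low counts. Lmx1b passed through the controls, since its 3 control libraries but 0, 1 and 1 libraries of days 5, 14 and 21 reached the minimum of 0.267 CPM. In whole kidney, fewer podocytes and less RNA per podocyte cannot be told apart.

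Day-21 replicate 2 stood apart from its group. On the first principal component it lay at -36.8, with its group mates at 73.0 and 80.1 and the controls between -95.8 and -86.0. Nphs1, which encodes the slit diaphragm protein nephrin and is a defining podocyte gene, was at 16.5 CPM in this library and at 0.412 and 0.517 CPM in the other day-21 libraries, against 22.1, 20.04 and 24.6 CPM in controls. The fit estimates the spread over all groups at once, so standard errors in comparisons that leave this library aside depend on it too. Changes of the 6 genes that rest on it are therefore given with and without it, and so are counts over gene lists that moved by over 1.5 times. Scaling also moved the results. Transcripts of the mitochondrial genome took 8.98 to 9.46% of counts at day 14 and 22.4 to 23.7% in controls, and their part in the scaling was not tested. With library totals in place of TMM factors, the median gene was at a log2 fold change of 0.15, 0.80 and 0.55 at days 5, 14 and 21, against 0.00, 0.08 and 0.07 in the TMM fit.

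Promoters of 3 of the 6 genes were found in the RefSeq table for GRCm38.p6, as 250 bases before and 50 after the gene start. They belong to a gene that was lower on every day, a gene that was lower and then higher, and a gene that was not called until day 21, and they are shown to set these 3 courses beside their start regions. Capitals mark matches, on either strand, to 7 motifs: CANNTG (E-box, bound by factors of the Tcf21 family), GCGTGGG (EGR/WT1 core), TAATTA (homeodomain site), TGTTTAC (forkhead site), GGGCGG (GC box), CCAAT and TATAAA.
Lmx1b, chr2:33641049-33641348, minus strand: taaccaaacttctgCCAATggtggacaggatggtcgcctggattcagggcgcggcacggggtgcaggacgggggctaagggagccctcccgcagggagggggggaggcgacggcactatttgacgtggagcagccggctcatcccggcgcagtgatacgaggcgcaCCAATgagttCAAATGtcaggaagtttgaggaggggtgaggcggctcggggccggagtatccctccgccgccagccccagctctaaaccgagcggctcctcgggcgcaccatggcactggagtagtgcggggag
Tcf21, chr10:22820094-22820393, minus strand: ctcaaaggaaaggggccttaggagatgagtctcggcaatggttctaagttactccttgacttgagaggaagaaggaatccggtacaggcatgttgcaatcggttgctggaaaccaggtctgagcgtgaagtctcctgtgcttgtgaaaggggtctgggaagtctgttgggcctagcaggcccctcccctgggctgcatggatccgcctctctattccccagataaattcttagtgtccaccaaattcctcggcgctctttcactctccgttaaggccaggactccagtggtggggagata
Foxc1, chr13:31806396-31806695, plus strand: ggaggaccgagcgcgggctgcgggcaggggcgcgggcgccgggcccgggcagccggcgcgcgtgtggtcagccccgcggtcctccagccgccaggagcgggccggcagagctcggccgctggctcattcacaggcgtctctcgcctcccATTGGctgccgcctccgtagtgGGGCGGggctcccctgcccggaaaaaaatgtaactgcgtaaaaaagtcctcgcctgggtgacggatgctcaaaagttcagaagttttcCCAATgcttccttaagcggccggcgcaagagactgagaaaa
The Lmx1b window held an E-box at -74 and CCAAT at -236 and -84, counted as the first base of the match from the start. The Foxc1 window held a GC box at -79 and CCAAT at -101 and 9. The Tcf21 window held none of the 7. No matches overlapped. Of 32851 promoter windows of this length, 72.3% held CANNTG, 5.04% GCGTGGG, 5.29% TAATTA, 3.65% TGTTTAC, 35.7% GGGCGG, 37.4% CCAAT and 13.6% TATAAA, so that none of the matches found is rare. The GC content was 65.7% for Lmx1b, 53.3% for Tcf21 and 67.3% for Foxc1, against a median of 52.7% over all windows.

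**Figure D1:**
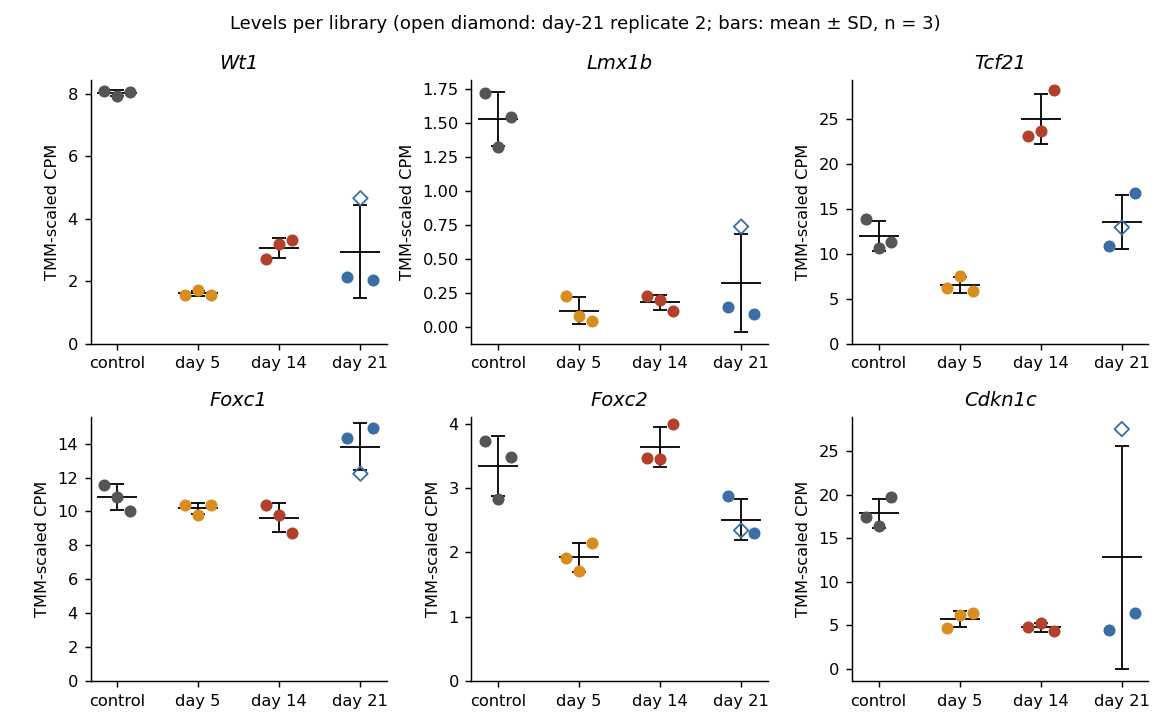
TMM-scaled CPM (vertical axes) of the 6 genes in each of the 12 libraries, by group (horizontal axes). Points are libraries, the long bars are means and the short bars 1 SD (n = 3), and the open diamond is day-21 replicate 2. The day-5 libraries of Wt1, Lmx1b, Tcf21, Foxc2 and Cdkn1c all lie below the 3 controls, and the open diamond lies far above the other day-21 libraries for Wt1, Lmx1b and Cdkn1c.

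Set per kilobase of exon length, which allows levels to be compared between genes, controls were ordered from Cdkn1c at 8.76 ± 0.822 CPM per kilobase (SD, n = 3) through Tcf21 at 5.09 ± 0.723, Foxc1 at 1.85 ± 0.132, Wt1 at 1.30 ± 0.0147 and Foxc2 at 1.23 ± 0.172 to Lmx1b at 0.307 ± 0.0397. In this order only the ranges of Wt1 and Foxc2 overlapped. At day 5 the ranges of Cdkn1c and Tcf21 overlapped at 2.82 ± 0.446 and 2.79 ± 0.382 CPM per kilobase, and Wt1 at 0.260 ± 0.0137 was below Foxc2 at 0.705 ± 0.0811. At day 14 Tcf21 led at 10.7 ± 1.20 CPM per kilobase, above Cdkn1c at 2.34 ± 0.243, and no neighbouring ranges overlapped. At day 21 Cdkn1c and Tcf21 again overlapped, at 6.27 ± 6.29 and 5.76 ± 1.30 CPM per kilobase. Lmx1b had the lowest level of the 6 in every group.

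At day 5, 4 of the 6 genes were called lower than in controls and the other 2 were not called, where 5.09% of all tested genes were called lower and 9.77% higher. At day 14, 3 were called lower and 1 higher, where 28.8% of genes were called lower and 31.2% higher. At day 21, 2 were called lower and 1 higher, where 18.5% were called lower and 24.3% higher. The median log2 fold change of the 6 genes was -1.25, -0.78 and -0.45 at days 5, 14 and 21. The 3 toxin libraries lay wholly below the 3 controls for 5 of the 6 genes at day 5, where 23.7% of all genes did. At day 14 they lay wholly below for 3 genes and wholly above for 1, where 34.3 and 38.6% of all genes did, and at day 21 for 2 and 1, where 20.9 and 24.3% did. In the fit without day-21 replicate 2, 5 were called lower at day 5, beside 14.9% of all genes. In that fit 3 were called lower and 1 higher on both day 14 and day 21, beside 30.9% lower and 34.7% higher at day 14 and 28.4% lower and 33.2% higher at day 21. With library totals 3 were called lower at day 5, 3 lower and 3 higher at day 14, and 2 lower and 2 higher at day 21. Under that scaling 2.78% of all genes were called lower at day 5, 11.2% lower and 66.4% higher at day 14, and 7.38% lower and 55.7% higher at day 21. All 6 were called in the joint test of any difference among the 4 groups (edgeR adjusted p from 8.07e-05 to 0.0211), as were 66.1% of all genes.

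**Figure D2:**
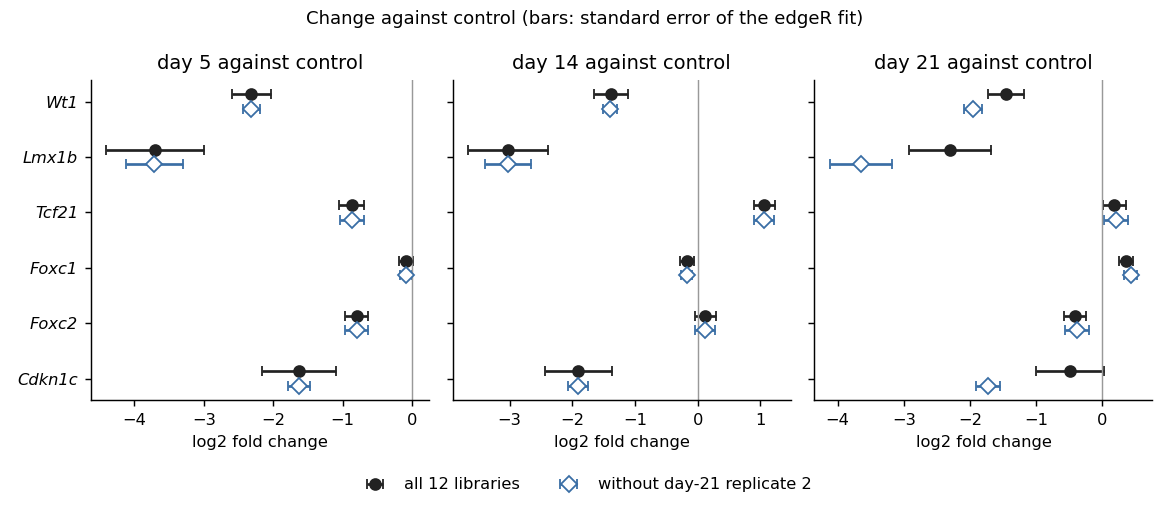
Log2 fold change (horizontal axes) of each gene at day 5, day 14 and day 21 against control, with bars for the standard error of the edgeR fit. Filled circles are the fit to all 12 libraries and open diamonds the fit without day-21 replicate 2. Without that library the Cdkn1c change at day 21 is -1.73 in place of -0.49 and the Lmx1b change is -3.65 in place of -2.30, while Tcf21, Foxc1 and Foxc2 move little.

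Wt1 (ENSMUSG00000016458; GRCm39 chromosome 2, 104956874 to 105003961, plus strand) was at 8.10, 7.92 and 8.06 CPM in the controls, at 1.55, 1.71 and 1.57 CPM at day 5, at 2.70, 3.19 and 3.31 CPM at day 14 and at 2.13, 4.65 and 2.02 CPM at day 21. Every toxin library lay below every control, and the day-14 libraries all lay above the day-5 ones, as they did for 35.4% of all genes. At day 5 Wt1 fell by 2.32 ± 0.28 (edgeR adjusted p = 0.000389), to 20.04% of the control mean. At day 14 it fell by 1.39 ± 0.27 (adjusted p = 0.00125), to 38.2% of the control mean. At day 21 it fell by 1.46 ± 0.27 (adjusted p = 0.00326). Day-21 replicate 2 held 58.0% of the control mean, while replicates 1 and 3 held 26.6 and 25.2%, and without replicate 2 the fall at day 21 was 1.96 ± 0.14 (adjusted p = 2.61e-07). These 3 calls were kept under all 20 alternative settings.

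The partial return of Wt1 between days 5 and 14 was itself tested. Day 14 was higher than day 5 by 0.93 ± 0.28 (edgeR adjusted p = 0.0176), a comparison in which 24.7% of genes were called higher and 26.1% lower. Without day-5 replicate 1, day-5 replicate 3, day-14 replicate 2 or day-14 replicate 3, the adjusted p was 0.0556, 0.0550, 0.0503 and 0.0536, and without day-21 replicate 2 it was 6.02e-05. Wt1 at day 21 was not called against day 14 (-0.07 ± 0.27, adjusted p = 0.879). Without day-21 replicate 2 it was lower than at day 14 by 0.56 on the log2 scale (-0.56 ± 0.14, adjusted p = 0.0139), and without replicate 1 or 3 the difference was 0.12 or 0.14. Day 21 was higher than day 5 by 0.86 ± 0.28 (adjusted p = 0.0447), and without day-21 replicate 2 by 0.36 ± 0.14 (adjusted p = 0.0496). That call was lost under 13 of the 20 settings, with an adjusted p between 0.0593 and 0.117 without any 1 of the 9 control, day-5 and day-14 libraries.

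Other kidney cells also hold Wt1, so their markers were read beside it. Of 10 markers of parietal epithelium, the cells that line Bowman's capsule, 10 were called higher at day 14, and their summed level was 222 to 225 CPM in controls, 395 to 452 at day 5, 987 to 1015 at day 14 and 374 to 1067 at day 21. Of all genes, 31.2% were called higher at day 14. Cd44, listed as a marker of activated parietal cells, had 101, 102 and 103 CPM at day 14 against 2.17, 1.51 and 1.30 CPM in controls. Which cells made Cd44 and the other listed transcripts cannot be told from whole kidney. Mesothelial markers summed to 166 to 184 CPM at day 14 against 75.2 to 79.6 CPM in controls, and 3 of the 4 tested were called higher. Nearly all of that sum was Krt7, a keratin of other epithelia as well, while Msln was at 2.20, 2.23 and 3.38 CPM at day 14 against 0.534, 0.572 and 0.432 CPM in controls, and Muc16 was at 0 in 10 of the 12 libraries. The part of these cells in the Wt1 level was not tested. Wt1os, which lies 19 bases from Wt1 on the opposite strand, had 12, 20 and 15 counts in controls, 1, 2 and 2 at day 5, 5, 4 and 4 at day 14 and 1, 5 and 6 at day 21. Whether counting used the strand is not given, so reads of the pair may be shared at their border.

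Lmx1b (ENSMUSG00000038765; GRCm39 chromosome 2, 33450977 to 33530620, minus strand) was at 1.72, 1.33 and 1.54 CPM in the controls, at 0.231, 0.0839 and 0.0483 CPM at day 5, at 0.231, 0.196 and 0.122 CPM at day 14 and at 0.145, 0.738 and 0.0940 CPM at day 21. It was the least abundant of the 6 and no toxin library reached the control range. Summed over 3 libraries it had 12, 25 and 33 counts at days 5, 14 and 21 and 152 counts in controls. The scaled ratios to control were 0.0729, 0.122 and 0.187, with 95% exact intervals of 0.0369 to 0.131, 0.0767 to 0.187 and 0.125 to 0.275, which cover counting error only. Lmx1b fell by 3.70 ± 0.70 at day 5 (edgeR adjusted p = 0.0055), by 3.02 ± 0.64 at day 14 (adjusted p = 0.00201) and by 2.30 ± 0.62 at day 21 (adjusted p = 0.0146). Day-21 replicate 2 held 48.3% of the control mean and replicates 1 and 3 held 9.50 and 6.15%. Without replicate 2 the fall at day 21 was 3.65 ± 0.47 (adjusted p = 3.4e-05), and without replicate 1 it was 1.94 and was not called (adjusted p = 0.0547). In a fit of only the day-21 and control libraries the day-21 change of -2.29 was not called either (adjusted p = 0.0734). No difference between days was called for Lmx1b. The neighbouring C130021I20Rik starts 585 bases away on the opposite strand, and had 2, 3 and 2 counts at day 5 and 22, 9 and 19 counts in controls.

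Tcf21 (ENSMUSG00000045680; GRCm39 chromosome 10, 22693180 to 22696073, minus strand) was at 13.9, 10.7 and 11.3 CPM in the controls, at 6.24, 7.55 and 5.84 CPM at day 5, at 23.1, 23.6 and 28.3 CPM at day 14 and at 10.8, 12.9 and 16.8 CPM at day 21. The day-5 libraries all lay below the controls, the day-14 libraries all lay above them, and day 21 overlapped them. Tcf21 fell by 0.87 ± 0.18 at day 5 (edgeR adjusted p = 0.00742), to 54.7% of the control mean. It was higher by 1.06 ± 0.17 at day 14 (adjusted p = 0.00043), at 209% of the control mean. At day 21 the difference from control was 0.18 ± 0.17 (adjusted p = 0.411). Unlike Wt1 and Lmx1b, day-21 replicate 2 was not apart here, at 108% of the control mean beside 90.5 and 141% for replicates 1 and 3. With library totals the day-5 fall missed the threshold (-0.73, adjusted p = 0.0505), and the day-14 rise was 1.79 where the median gene was at 0.80. The day-21 difference was called with library totals (0.67, adjusted p = 0.0191). With TMM factors and without day-21 replicate 3 it was -0.012.

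Both steps of the Tcf21 course were called between days. Day 14 exceeded day 5 by 1.93 ± 0.18 (edgeR adjusted p = 4.29e-05), and day 21 was below day 14 by 0.89 on the log2 scale (-0.89 ± 0.17, adjusted p = 0.00923), where 7.57% of genes were called lower and 7.03% higher. Day 21 was above day 5 by 1.05 ± 0.18 (adjusted p = 0.00333), where 15.0% of genes were called higher and 11.8% lower. In fits of only the 6 libraries compared, the differences of day 21 from day 14 and from day 5 missed the threshold (adjusted p = 0.0804 and 0.0503). The markers of stromal and mesangial cells, which also use Tcf21, were read beside it. Of the 10, 8 were called higher at day 14 and 2 were not called, where 31.2% of all genes were called higher. Their median log2 fold change at day 14 was 1.59 against 0.08 over all genes. At days 5 and 21 their median was 0.41 and 1.18, where Tcf21 changed by -0.87 and 0.18. Of these markers, 1 was called higher at day 5 and 9 were not called, beside 9.77% of all genes called higher. Whether their course differed from that of Tcf21 was not tested. Their summed level was 198 to 287 CPM in controls, 287 to 406 at day 5, 1029 to 1079 at day 14 and 324 to 948 at day 21. Col1a1, a fibrillar collagen of fibroblasts, was at 194, 192 and 230 CPM at day 14 against 21.2, 9.97 and 12.6 CPM in controls. The part of stromal cells in the Tcf21 level was not tested. Gm10824, on the opposite strand, overlaps Tcf21 and held 100 counts over all libraries.

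Foxc1 (ENSMUSG00000050295; GRCm39 chromosome 13, 31990616 to 31996459, plus strand) was at 11.6, 10.9 and 10.03 CPM in the controls, at 10.4, 9.82 and 10.4 CPM at day 5, at 10.4, 9.77 and 8.72 CPM at day 14 and at 14.4, 12.2 and 14.9 CPM at day 21. The day-5 and day-14 libraries overlapped the controls, and the day-21 libraries all lay above them. The change was -0.09 ± 0.11 at day 5 (edgeR adjusted p = 0.637) and -0.17 ± 0.11 at day 14 (adjusted p = 0.193). Foxc1 was higher by 0.35 ± 0.11 at day 21 (adjusted p = 0.0229), at 128% of the control mean. With library totals the changes at days 5 and 14 were 0.056 and 0.56, the second of which was called (adjusted p = 0.0130), so the sign of Foxc1 on these days turned with the scaling. In that scaling Foxc1 at day 14 stayed below the median gene. The day-21 call was lost without control replicate 2, control replicate 3, day-21 replicate 1 or day-21 replicate 3 (adjusted p = 0.0754, 0.116, 0.0648 and 0.0812) and with no filter on low counts (adjusted p = 0.0525), and without day-21 replicate 2 it was 0.43 ± 0.10 (adjusted p = 0.0026). Day 21 was also higher than day 14 by 0.52 ± 0.11 (adjusted p = 0.0115) and than day 5 by 0.44 ± 0.11 (adjusted p = 0.0151). The call against day 5 was lost without day-5 replicate 2, day-5 replicate 3 or day-21 replicate 3 (adjusted p = 0.0609, 0.0503 and 0.0538). The call against day 14 was lost with library totals (0.29, adjusted p = 0.263), and all 3 day-21 calls were lost in fits of only the 6 libraries compared (adjusted p from 0.0856 to 0.108).

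Foxc2 (ENSMUSG00000046714; GRCm39 chromosome 8, 121842910 to 121845634, plus strand) was at 3.74, 2.83 and 3.49 CPM in the controls, at 1.91, 1.71 and 2.15 CPM at day 5, at 3.47, 3.46 and 3.99 CPM at day 14 and at 2.88, 2.34 and 2.30 CPM at day 21. The day-5 libraries all lay below the controls, while days 14 and 21 overlapped them. Foxc2 fell by 0.80 ± 0.17 at day 5 (edgeR adjusted p = 0.00994), to 57.3% of the control mean. Without day-5 replicate 2 the adjusted p of that fall was 0.0509, and with library totals it was 0.0740. The change from control was 0.12 ± 0.17 at day 14 (adjusted p = 0.554) and -0.42 ± 0.17 at day 21 (adjusted p = 0.0658). Without control replicate 2 the day-14 difference was -0.031 and the day-21 difference was called (-0.56, adjusted p = 0.0405), and with library totals the day-14 difference was 0.85 (adjusted p = 0.00404) and the day-21 difference 0.069. On all 12 libraries the day-21 difference was also called by DESeq2 (-0.46, adjusted p = 0.0326) and with median-of-ratios factors (-0.46, adjusted p = 0.0472). Day 21 was not called against day 5 (0.38 ± 0.17, adjusted p = 0.111), and with library totals it was (0.73, adjusted p = 0.0270). Day 14 was higher than day 5 by 0.92 ± 0.17 (adjusted p = 0.00165), a call kept under all 20 settings. The level at day 21 was lower than at day 14 by a margin that missed the threshold (-0.54 ± 0.17, adjusted p = 0.0542), and without day-21 replicate 1 it passed (-0.64, adjusted p = 0.0284). On all 12 libraries it passed with DESeq2, library totals, limma-voom and the filter of 1 CPM in 3 libraries (adjusted p = 0.0177, 0.0336, 0.0434 and 0.0476).

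Foxc1 and Foxc2 are paralogs, and how reads that match both genes were counted is not given. The gene span of Foxc2 also overlaps that of Galnt2l on the same strand. Endothelial markers, whose cells also use both factors, were called lower at day 14 for 6 of 8 genes, with sums of 348 to 370 CPM in controls, 316 to 375 at day 5, 231 to 250 at day 14 and 200 to 312 at day 21. The 4 lymphatic markers summed to 18.98 to 20.04 CPM in controls, 15.5 to 19.05 at day 5, 12.2 to 15.3 at day 14 and 13.3 to 19.1 at day 21. With library totals, where the median gene was at 0.80, 3 endothelial markers were called higher at day 14 in place of 6 called lower. Of all genes, 66.4% were called higher at day 14 under that scaling, and 28.8% were called lower with TMM factors. At day 14 Lyve1, of lymphatic endothelium and macrophages, was called higher, and Prox1, a lymphatic factor also made by nephron segments, was called lower. The part of these cells in the levels of Foxc1 and Foxc2 was not tested. Of 5 forkhead genes and transcripts that neighbour Foxc1 or Foxc2, Foxf1, Foxl1 and Foxq1 had enough counts to be tested and Foxf2 and Fendrr did not. Foxf1 was called higher at day 14 and Foxq1 at day 21. The fit without day-21 replicate 2 called 2 higher and 1 lower at day 14 and 1 each way at day 21. Of all genes, that fit called 34.7% higher and 30.9% lower at day 14, and 33.2 and 28.4% at day 21.

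Cdkn1c (ENSMUSG00000037664; GRCm39 chromosome 7, 143012076 to 143014787, minus strand) was at 17.4, 16.4 and 19.7 CPM in the controls, at 4.72, 6.13 and 6.42 CPM at day 5, at 4.75, 5.28 and 4.29 CPM at day 14 and at 4.41, 27.5 and 6.42 CPM at day 21. Every library of days 5 and 14 lay below every control. At day 21 replicates 1 and 3 held 24.7 and 35.9% of the control mean and replicate 2 held 154%, above all 3 controls. At day 14 Cdkn1c fell by 1.90 ± 0.54 (edgeR adjusted p = 0.0101), to 26.7% of the control mean, a call kept under all 20 settings. At day 5 the change was -1.63 ± 0.53 (adjusted p = 0.0638), at 32.2% of the control mean. Without day-21 replicate 2, which is in neither group of that comparison, the same change of -1.63 had a standard error of 0.16 (adjusted p = 1.65e-05), and without day-21 replicate 1 or 3 its adjusted p was 0.0227 or 0.0455. It was also called with all 12 libraries by DESeq2 (-1.67, adjusted p = 0.00985) and with library totals (-1.49, adjusted p = 0.0490), and in a fit of only the day-5 and control libraries (-1.63, adjusted p = 4.5e-05). At day 21 the change was -0.49 ± 0.52 (adjusted p = 0.453) with all libraries and -1.73 ± 0.18 (adjusted p = 6.68e-06) without replicate 2.

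No difference between days was called for Cdkn1c in the edgeR fit with TMM scaling to all libraries. Day 21 against day 14 was 1.41 ± 0.53 (edgeR adjusted p = 0.0939), and without day-21 replicate 1, 2 or 3 it was 1.83 (adjusted p = 0.0168), 0.18 (adjusted p = 0.49) or 1.74 (adjusted p = 0.0469). DESeq2 on all 12 libraries called it (1.43, adjusted p = 0.0302). Day 21 against day 5 was 1.14 ± 0.53 (adjusted p = 0.122). With library totals it was 1.31 (adjusted p = 0.0380), without day-21 replicate 1 it was 1.55 (adjusted p = 0.0427), and without replicate 2 it was -0.10 (adjusted p = 0.655). Adrenal tissue, which lies against the kidney and is rich in Cdkn1c, was looked for by its markers: Cyp11b2 was at 0 in every library, and Cyp11a1 did not exceed 0.0736 CPM in any. Of the 6 adrenal and gonadal markers 2 had enough counts to be tested. In the edgeR fit with TMM scaling to all libraries Star was not called on any day. Sox9, which injured tubules are also known to make, was called higher on all 3. Without day-21 replicate 2, both Star and Sox9 were called higher at day 21, beside 33.2% of all genes. With library totals both were called higher at day 14, beside 66.4% of all genes.

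**Figure D3:**
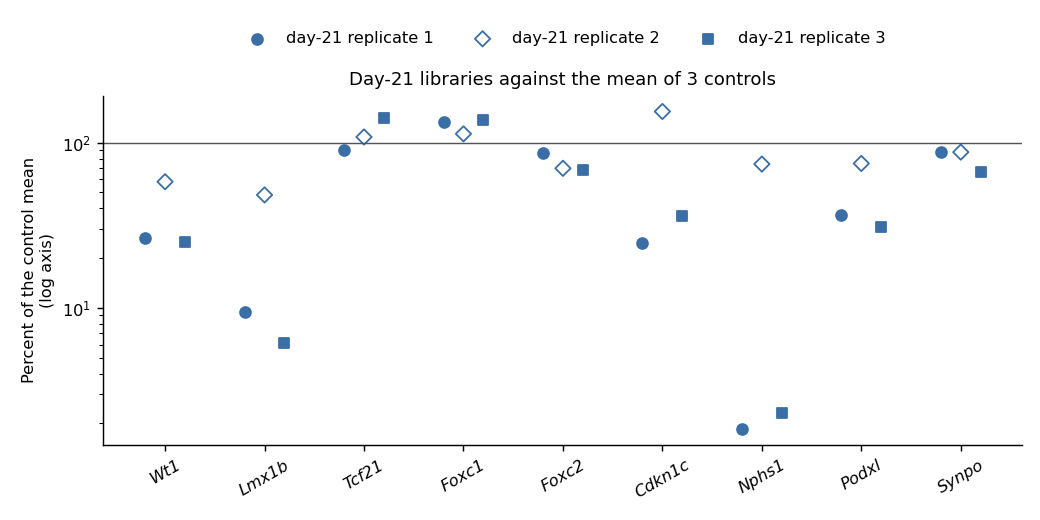
Level in each day-21 library as a percent of the control mean (vertical log axis) for the 6 genes and for Nphs1, Podxl and Synpo; the line marks the control mean. Replicate 2 (open diamonds) lies above replicates 1 and 3 for Wt1, Lmx1b, Cdkn1c, Nphs1 and Podxl, between them for Tcf21 and Foxc2, and below them for Foxc1.

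Ratios of 2 genes within a library do not depend on the scaling between libraries. Each of the other genes was set against Wt1, and Foxc1 against Foxc2, in log2 ratios of counts with 0.5 added. With 3 libraries against 3, the smallest p of the exact two-sided permutation test is 0.1, so none of the 18 comparisons could pass 0.05. The adjusted p was 0.1125 for the 16 whose groups did not overlap.

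The Tcf21 to Wt1 ratio was 2.00, 2.14 and 1.89 at day 5, 3.09, 2.88 and 3.09 at day 14 and 2.34, 1.47 and 3.05 at day 21, against 0.78, 0.43 and 0.49 in controls. It was above the controls in every toxin library, and the mean difference was 1.44, 2.46 and 1.72 at days 5, 14 and 21. The Foxc1 to Wt1 ratio was likewise above the controls in every toxin library, by a mean of 2.22, 1.22 and 1.91, and so was that of Foxc2, by 1.52, 1.51 and 1.14. The Lmx1b to Wt1 ratio was lower in every toxin library, by a mean of -1.45, -1.63 and -1.17. In day-5 replicate 1 and day-21 replicate 2 it came near the controls, at -2.66 and -2.63, where the lowest control was -2.57. Without day-5 replicate 1 the mean difference of Lmx1b at day 5 was -2.04. The Cdkn1c to Wt1 ratio was above the controls at day 5 (0.67), below them at day 14 (-0.51) and overlapped them at day 21. The Foxc1 to Foxc2 ratio was above the controls in every library of days 5 and 21, by a mean of 0.71 and 0.76, and overlapped them at day 14.

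**Figure D4:**
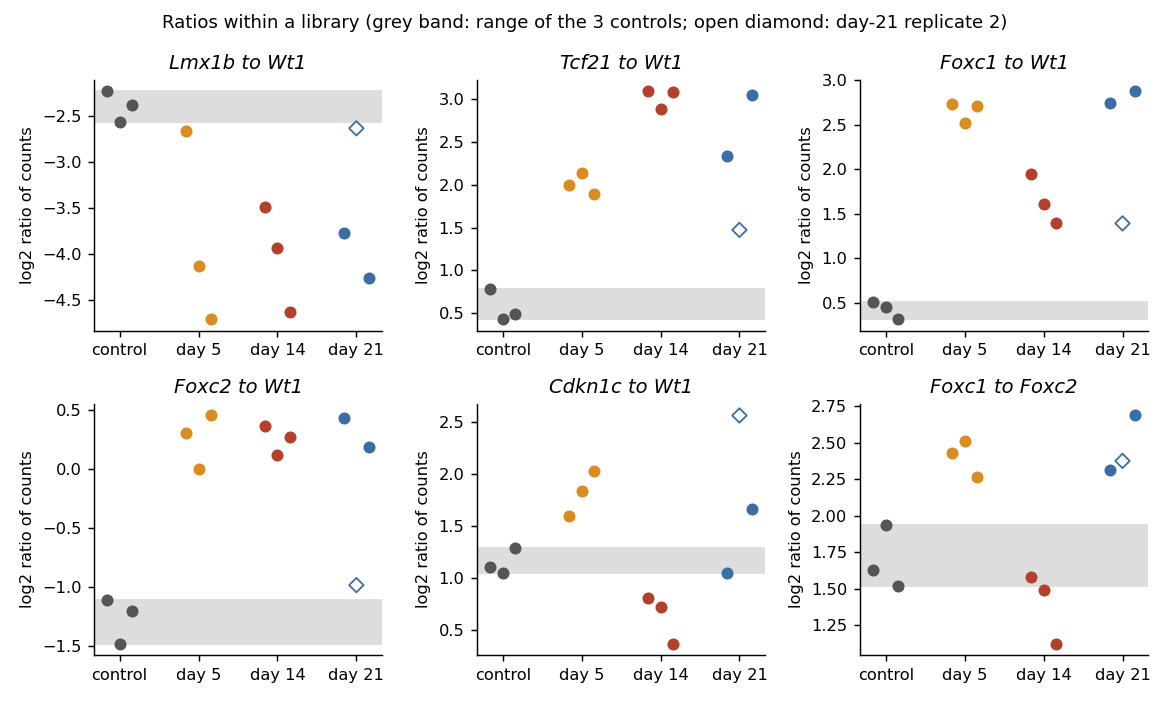
Log2 ratios of counts of 2 genes within a library (vertical axes) by group (horizontal axes); points are libraries, the grey band is the range of the 3 controls and the open diamond is day-21 replicate 2. Tcf21, Foxc1 and Foxc2 lie above the band against Wt1 in every toxin library, and Lmx1b lies below it.

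Other regulators of podocytes were counted as a list of 16 genes. Of these, 3 were called lower and 4 higher at day 5, 1 lower and 6 higher at day 14, and 4 lower and 6 higher at day 21. Without day-21 replicate 2, 5 were called lower at day 5, and 2 lower and 9 higher at day 14. With library totals 1 was lower and 13 higher at day 14, and 1 lower and 9 higher at day 21. A fit of only the day-21 and control libraries called 0 lower and 2 higher, with 4 and 5 at an unadjusted edgeR p under 0.05, where DESeq2 on all libraries called 5 and 6. Of 18333 genes that fit called 345 lower and 1286 higher, and DESeq2 called 4469 and 4713 of 19821. Of all genes, 5.09, 28.8 and 18.5% were called lower with TMM factors at days 5, 14 and 21, and 9.77, 31.2 and 24.3% higher. Without day-21 replicate 2, 14.9% were lower at day 5, and 30.9% lower and 34.7% higher at day 14. With library totals 11.2 and 7.38% were lower at days 14 and 21, and 66.4 and 55.7% higher. The list's median log2 fold change was -0.07, 0.29 and 0.11, against 0.00, 0.08 and 0.07 over all genes. Foxd1, a forkhead factor of podocytes and renal stroma that was picked after its values were seen, was lower at day 5 by 1.96 on the log2 scale (-1.96 ± 0.24, edgeR adjusted p = 0.000372) and higher at day 14 than at day 5 by 1.44 ± 0.24 (adjusted p = 0.000942). Klf15, a Krüppel-like factor of podocytes and tubules, was at 14.5, 15.9 and 13.4 CPM at day 14 against 80.9, 101 and 116 CPM in controls (-2.77 ± 0.30, adjusted p = 4.5e-05). It was the 1 gene of the 16 called lower at day 14 in the edgeR fit to all libraries, where 6 were called higher.

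Of 24 genes of podocyte structure, several of them Wt1 targets, 11 were called lower and 2 higher at day 5, 13 lower and 5 higher at day 14, and 11 lower and 4 higher at day 21. A fit of only the day-21 and control libraries called 0 in either direction at day 21, with 9 lower and 4 higher at an unadjusted edgeR p under 0.05, where DESeq2 on all libraries called 11 and 4. Of 18333 genes that fit called 345 lower and 1286 higher, and DESeq2 called 4469 and 4713 of 19821. Leaving out day-21 replicate 2, 4 were called higher at day 5, beside 17.4% of all genes. The median log2 fold change of the list was -0.49, -0.40 and -0.29. With library totals 7 were called lower and 12 higher at day 14 and 6 lower and 10 higher at day 21. At day 14 under that scaling the median of the list was 0.33 and that of all genes was 0.80. Of all genes, 5.09, 28.8 and 18.5% were called lower with TMM factors at days 5, 14 and 21, and 9.77, 31.2 and 24.3% higher. With library totals 11.2 and 7.38% of all genes were called lower at days 14 and 21, and 66.4 and 55.7% higher. Nphs1 was at 1.19, 1.99 and 1.35 CPM at day 5, 0.598, 0.614 and 0.268 CPM at day 14 and 0.412, 16.5 and 0.517 CPM at day 21, against 22.1, 20.04 and 24.6 CPM in controls. Its change at day 14 was -5.47 ± 1.22 (edgeR adjusted p = 0.00283), while that of Wt1 was -1.39 and that of Podxl, a surface sialomucin also made by endothelium, was -1.44 ± 0.26 (adjusted p = 0.000831). The day-14 libraries of Nphs1 all lay below its day-5 libraries, where those of Wt1 lay above, and this difference between genes was not tested. Synpo, which organises the actin of foot processes, was called lower at day 5 (-0.93 ± 0.12, adjusted p = 0.000484), and at day 14 its change was 0.25 ± 0.12 (adjusted p = 0.0782). Nes, an intermediate filament protein of podocytes and of other cells, was higher at day 14 by 1.82 ± 0.17 (adjusted p = 1.88e-05).

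Other inhibitors of cyclin-dependent kinases did not share the low levels of Cdkn1c. Of 7, 4 were called higher at day 5, 5 at day 14 and 3 at day 21, and the others were not called, where 9.77, 31.2 and 24.3% of all genes were called higher. Under library totals 3, 7 and 6 were called higher, beside 9.68, 66.4 and 55.7% of all genes. The day-21 count was 5 without day-21 replicate 2. Cdkn1a, which encodes p21, was at 49.7, 67.5 and 77.1 CPM at day 5 against 2.55, 3.59 and 2.62 CPM in controls, a rise of 4.47 ± 0.56 (edgeR adjusted p = 0.000464), and it remained called at day 14 (3.54 ± 0.54, adjusted p = 0.000324) and day 21 (3.31 ± 0.54, adjusted p = 0.0019). Cdkn3, a phosphatase that acts on cyclin-dependent kinases and is made in dividing cells, rose by 3.94 ± 0.34 at day 5 (adjusted p = 5.91e-05). Cdkn2c, encoding p18, rose by 1.14 ± 0.21 at day 5 (adjusted p = 0.00474). Cdkn2b, encoding p15, was higher by 1.68 ± 0.32 at day 14 (adjusted p = 0.00111) and by 2.09 ± 0.32 at day 21 (adjusted p = 0.00143). Cdkn1b, encoding p27, was between 35.6 and 45.99 CPM in all 12 libraries. Cdkn2a was at 0.435, 0.515 and 0.438 CPM at day 14 against 0, 0.0301 and 0 CPM in controls. Of 14 cyclins and proliferation genes, 10 were called higher at day 5 and 4 were not called. Without day-21 replicate 2, 11 were higher and 2 lower at day 5, beside 17.4 and 14.9% of all genes. At day 14, 12 were called higher and 2 lower, beside 31.2 and 28.8% of all genes. At day 21, 8 were called higher and 2 lower, beside 24.3 and 18.5%. A fit of only the day-21 and control libraries called 3 higher and 0 lower, beside 1286 and 345 of 18333 genes. Top2a, a DNA topoisomerase of dividing cells, was at 35.6, 59.9 and 64.5 CPM at day 5 against 3.80, 3.71 and 1.79 CPM in controls.

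Cdkn1c lies in an imprinted cluster on chromosome 7. Of its 8 tested neighbours, 2 were called higher and 2 lower at both day 14 and day 21, and with library totals 5 higher and 2 lower at day 14 and 5 higher and 1 lower at day 21. A fit of only the 6 libraries compared called 4 higher and 2 lower of 9 at day 14, beside 6779 and 6560 of 19320 genes. At day 21 it called 0, with 2 higher and 3 lower at an unadjusted edgeR p under 0.05, where DESeq2 on all libraries called 2 and 2. Of 18333 genes that fit called 1286 higher and 345 lower at day 21, and DESeq2 called 4713 and 4469 of 19821. Of all genes, 31.2% were called higher and 28.8% lower at day 14 with TMM factors, and 24.3 and 18.5% at day 21. With library totals these shares were 66.4 and 11.2% at day 14, and 55.7 and 7.38% at day 21. The 2 neighbours called higher at day 14 with TMM factors were Kcnq1ot1, a noncoding RNA antisense to Kcnq1 (0.67 ± 0.23, edgeR adjusted p = 0.0278), and Tssc4 (0.32 ± 0.11, adjusted p = 0.0309). With median-of-ratios factors 1 of the 8 neighbours was called higher at day 14, with 2 at an unadjusted edgeR p under 0.05. Of all 19821 genes, 5855 were called higher at day 14 with those factors. Slc22a18, a transporter of kidney tubules whose gene lies 12686 bases from Cdkn1c, was at 36.6, 40.4 and 43.2 CPM at day 14 against 333, 352 and 328 CPM in controls (-3.07 ± 0.44, edgeR adjusted p = 0.000204). In day-21 replicate 2 it was at 208 CPM, beside 58.7 and 55.1 CPM in replicates 1 and 3. Phlda2, a pleckstrin homology domain protein, was lower at day 14 by 1.45 on the log2 scale (-1.45 ± 0.26, adjusted p = 0.000749). Of 8 markers of nephron segments, 7 were called lower at day 14, with sums of 3188 to 3354 CPM at day 14 against 11282 to 11852 CPM in controls. Their part in the levels of the cluster was not tested.

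Of 9 tested partners of the Notch, BMP and retinoid pathways, which act with these factors in nephron development, 1 was called higher at day 5, 7 at day 14 and 5 at day 21, and the others were not called. Without day-21 replicate 2, 3 were called higher at day 5, beside 17.4% of all genes. Fits of only the 6 libraries compared called 3 higher at day 5 and 1 at day 21, beside 3512 of 18180 and 1286 of 18333 genes. With library totals 8 were called higher at day 21, beside 55.7% of all genes. With TMM factors 9.77, 31.2 and 24.3% of all genes were called higher at days 5, 14 and 21. Aldh1a2, an enzyme of retinoic acid synthesis that mesothelium and stroma also make, was at 14.7, 14.4 and 17.98 CPM at day 5 against 2.08, 2.35 and 2.65 CPM in controls (2.73 ± 0.38, edgeR adjusted p = 0.00093). It was higher by 4.19 ± 0.40 at day 14 (adjusted p = 2.14e-05) and by 3.43 ± 0.39 at day 21 (adjusted p = 0.000377). Heyl, a Notch target, was higher by 1.74 ± 0.24 at day 14 (adjusted p = 0.000179).

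The genes whose courses were most like those of the 6 were found among 15029 tested genes by the root mean square difference over the 12 libraries, in log2 CPM less the control mean. Nearest to Wt1 were Tef at 0.345, Npr3 at 0.353 and Sema3g at 0.367. Nearest to Lmx1b were Shisa3 at 0.778, Ptpro, a receptor phosphatase of podocytes, at 0.815 and Gm8798 at 0.833. Lmx1b itself had between 2 and 58 counts per library. Nearest to Tcf21 were Abca9 at 0.274, Ak5 at 0.287 and Fzd2, a Wnt receptor, at 0.292. For Foxc1, whose changes were small, the nearest were Mir3076 at 0.0725, Phf14 at 0.115 and Phkg2 at 0.119. Nearest to Foxc2 were Tle3, a corepressor, at 0.185, Slc12a9 at 0.193 and Wnk2 at 0.207. Nearest to Cdkn1c were Slc4a1, an anion exchanger of red cells and of the collecting duct, at 0.320, Osgin1 at 0.375 and Sema3g at 0.391. The high value of day-21 replicate 2 entered the measure for Cdkn1c, and for Wt1 and Lmx1b too.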

How the data were processed

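Per the submitters' processing notes, fastp 0.20.0 and featureCounts were used with genome build GRCm39. No source used here names the aligner, whether counting used strand, the release of the annotation, or the treatment of reads matching several genes. The deposited table holds raw read counts per gene for 12 libraries, all with batch label 1. Columns were matched to samples by name.

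The counts were analysed in R 4.3.3 with edgeR 4.0.16 (limma 3.58.1 loaded): filterByExpr kept 19821 genes, TMM factors scaled the libraries, and a quasi-likelihood model had 1 coefficient per group and no replicate block. Adjustment (Benjamini-Hochberg) was made within each comparison. Standard errors are the absolute log2 change over the root of F. The fit was checked on simulated data that had the same spread for every gene and no library set apart from its group. That check does not cover the effect of day-21 replicate 2 or of the scaling. The 2803 genes without a symbol were tested and are not named. The members, the 14 gene lists, the alternatives and the rule for named genes were chosen with earlier results of these data known. The rule takes all members, a few podocyte genes, the 2 genes of each list with the smallest joint p, any gene of lists of up to 7, and the 3 genes nearest each member. Not every gene it gives is reported here. The alternatives were DESeq2 1.42.0, limma-voom, median-of-ratios factors, library totals, other filters (none, or 1 CPM in 3 libraries), a replicate block, a fit of the 6 libraries compared, and each library left out in turn. Reads carry no molecular identifiers, and intervals cover counting error only.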

Additional observations from a re-analysis of the deposited data

Results flagged for a closer look

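Differences between days, tested as contrasts of the edgeR quasi-likelihood fit (n = 3 libraries per day), were called for 4 of the 6 genes. All share the same 12 libraries and 1 estimate of the spread. Of all 19821 genes, 10083 were called at day 14 against day 5. At day 21, 2893 were called against day 14 and 5325 against day 5.

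Day 14 exceeded day 5 for Tcf21 by 1.93 on the log2 scale, for Wt1 by 0.93 and for Foxc2 by 0.92. In these 3 genes all day-14 libraries lay above all day-5 libraries, as for 35.4% of all genes, and 24.7% were called higher. Day 21 was below day 14 for Tcf21 (-0.89) and above it for Foxc1 (0.52). Day 21 exceeded day 5 for Tcf21 by 1.05, for Wt1 by 0.86 and for Foxc1 by 0.44. Without day-21 replicate 2, Wt1 exceeded day 5 by 0.36 (adjusted p = 0.0496).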

How the results depend on the processing

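Each change, each count of called genes and each ratio was recomputed under the alternatives. All 18 ratios within a library kept their sign with another pseudocount (1 in place of 0.5) and with each library left out. The median-of-ratios factors, limma-voom, both filters on low counts and the replicate block left all counts of called genes and members within 1.5 times.

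With library totals, Foxc1 changed sign at day 5 (0.056), at day 14 (0.56) and at day 14 against day 5 (0.50), as did Foxc2 at day 21 (0.069) and Cdkn1c at day 14 against day 5 (0.31). Called genes were then 77.7, 85.6 and 88.3% higher at days 5, 14 and 21, against 65.7, 52.1 and 56.8% with TMM, and 5 members were called at day 21 against day 5. Of all 19821 genes, 7450 were called in that comparison with library totals. DESeq2 called 4 members at day 21 against day 14, beside 4273 of 19821 genes.

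A fit of only the 6 libraries compared called 6982 genes at day 5, 1631 at day 21, 263 at day 21 against day 14 and 506 at day 21 against day 5, where the shared fit called 2945, 8490, 2893 and 5325. It called 1 member at day 21. At day 21 against day 14 and against day 5 it called 0, with 3 and 3 at an unadjusted edgeR p under 0.05, where DESeq2 on all 12 libraries called 4 and 3 and limma-voom 3 and 2. Of 19821 genes, DESeq2 called 4273 and 6600 in these 2 comparisons, and limma-voom 2972 and 5567. Lmx1b had too few counts for the fits of only 6 libraries between days and has no value there.

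With 1 library left out, genes called ranged from 1570 (without day-5 replicate 3) to 6691 at day 5, from 4918 (without day-21 replicate 3) to 12738 at day 21, from 852 (without day-14 replicate 2) to 4951 at day 21 against day 14 and from 2089 (without day-5 replicate 3) to 11506 at day 21 against day 5, each highest without day-21 replicate 2. Members called ranged from 1 to 4 at day 21, 2 to 4 at day 21 against day 14 and 1 to 4 at day 21 against day 5. These fits tested between 20185 and 20700 genes. Signs turned for 5 uncalled values: Foxc2 at day 14 ranged from -0.031 to 0.16, Tcf21 at day 21 from -0.012 to 0.32, Wt1 at day 21 against day 14 from -0.56 to 0.14, Lmx1b in that comparison from -0.62 to 1.19 and Cdkn1c at day 21 against day 5 from -0.10 to 1.55. The cause of these shifts was not tested.

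Correlations of deviations between same-numbered libraries ran from -0.14 to 0.17, which cannot show whether they share more than a number. The labels name no pairing. With the number as a replicate block, genes called were 2653, 11673 and 8218 at days 5, 14 and 21. Wt1 at day 21 against day 5 was the 1 member call that lost the threshold (adjusted p = 0.0526), and it was also lost under 12 other settings. Depth limits Lmx1b most, with 2 to 58 counts per library, and n = 3 limits every ratio test.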
